A study of Mus musculus with 6 samples.

Results

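The genes described here are 10 genes of actin and of proteins that bind it, taken by symbol from the 56748 mouse genes listed for each library. They are the actin genes Actb, Actg1 and Acta2, the genes of the monomer-binding or filament-severing proteins Pfn1, Cfl1, Tmsb4x and Tmsb10, and the contractile or filament-associated genes Tagln, Tagln2 and Myl9. Each symbol matched 1 Ensembl gene in the GENCODE M21 annotation of GRCm38, and all 10 are protein-coding. Coordinates are those of M21 and may not be those the authors used.

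Poly-A RNA was sequenced from 3 treated and 3 control libraries of 4T1, a cell line from a mouse mammary carcinoma, labelled wild type. For the treated libraries, cells seeded 24 h earlier received 125 µg/mL of Au/MoS2/Bi2S3 particles overnight, were exposed to near-infrared (NIR) light for 8 min and were washed after 24 h more. Control libraries came from cells of the same line and genotype labelled only as control. Both groups are labelled as collected at 48 h and share 1 batch label. Particles without light and light without particles were not analysed here, so the effects of particles and of light cannot be told apart. The study's design text speaks of RNA pooled from 3 individuals, and the labels do not say that replicates were separate cultures, so p-values measure only the spread between these libraries, which may be technical. The values are FPKM (fragments per kilobase of transcript and 1e6 reads), a level per transcript length.

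Actin monomers polymerize into filaments that give cells their shape, cortex and traction, and cells balance the pool of monomers against filaments. Beta-actin (Actb) and gamma-actin (Actg1) are the cytoplasmic actins of nearly every cell, whereas alpha smooth muscle actin (Acta2) marks smooth muscle, pericytes and myofibroblasts. Profilin 1 (Pfn1) feeds monomers to growing ends, cofilin 1 (Cfl1) severs older filaments, and the beta-thymosins (Tmsb4x, Tmsb10) hold monomers in reserve. Transgelin (Tagln) and the regulatory myosin light chain Myl9 belong to contractile smooth muscle, and transgelin 2 (Tagln2) is the relative found in many other cells. Many of these genes are known targets of serum response factor (SRF), which binds the CArG box and is activated by cofactors of the MRTF family that monomeric actin holds back.

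Actb and Actg1, and likewise Tmsb4x and Tmsb10, encode close relatives that were compared within each library, and their coding sequences show how alike the transcripts are. The coding sequences of Actb and Actg1 had 1000 of 1128 bases in common (88.7%), and the first 60 bases are shown with the 9 bases that differ in capitals (GENCODE M21 transcripts, 5′ to 3′).

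Actb: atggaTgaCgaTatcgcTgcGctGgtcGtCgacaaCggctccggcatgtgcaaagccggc

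Actg1: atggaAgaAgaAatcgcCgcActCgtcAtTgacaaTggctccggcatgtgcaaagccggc

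The thymosins Tmsb4x and Tmsb10 had 95 of 135 coding bases in common (70.4%). Their sequences up to the stop codon, 132 bases each, are shown with the 40 bases that differ in capitals.

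Tmsb4x: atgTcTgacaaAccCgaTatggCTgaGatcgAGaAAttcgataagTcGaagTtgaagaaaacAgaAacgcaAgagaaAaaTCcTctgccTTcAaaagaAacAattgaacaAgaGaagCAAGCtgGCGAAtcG

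Tmsb10: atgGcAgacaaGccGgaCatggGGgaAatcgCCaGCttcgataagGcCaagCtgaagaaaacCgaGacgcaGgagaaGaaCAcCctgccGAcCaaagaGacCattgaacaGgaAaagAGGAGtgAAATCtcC

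Acta2 matched Actb at 82.8% and Actg1 at 81.5% of aligned coding bases, and Tagln matched Tagln2 at 69.1%. Reads of near-identical copies can be split between loci, so the genes that matched a member's coding sequence at 90% or more over at least 100 bases were counted. Actg1 had 12 such pseudogenes in the files, holding between 1.62% and 2.24% of its own reads per library. Tmsb10 had 8 copies holding between 2.21% and 5.52%, and Cfl1 had 5 holding between 0.658% and 0.789%. Of the 3 genes matching Actb, 2 pseudogenes were at 0, and the other, Lrrc58, is a protein-coding gene that matched over 1080 bases. Its reads equalled between 6.41% and 17.0% of those of Actb. They are the reads of the whole gene, and the part from the matching stretch was not measured. Pfn1, Tmsb4x, Tagln2, Acta2 and Myl9 had no such copy.

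The treated libraries held 33.2 to 33.8 M (1e6) reads at genes, and the control libraries 32.6 to 38.1 M, as worked back from the step between low FPKM values. The 7 abundant members rested on 5739 or more reads in each library. The libraries of the groups differed widely outside these genes. Between 21821 and 22088 genes were above 0 in the treated libraries, against 15829 to 18988 in the control libraries, and the 100 most abundant genes held 19.0% to 19.4% of reads in treated libraries and 33.0% to 36.1% in control libraries. Mitochondrial mRNA made up 1.21% to 1.32% of reads in treated libraries and 0.00902% to 0.701% in control libraries. The part of these differences in the results below was not tested. The deposited FPKM had been scaled so that the typical gene stood at the same level in every library, and "higher" and "lower" are relative to that typical gene. Of the epithelial markers, Krt8, Krt18 and Krt19 were high and Epcam stood at 0.760 to 0.968 FPKM in treated libraries and 4.43 to 5.74 FPKM in control libraries, while Krt14, Krt5, Cdh1, Cldn4 and Cldn7 stayed under 1 FPKM in all 6. The 9 epithelial markers summed to 742 to 777 FPKM in treated libraries and 1536 to 2262 FPKM in control libraries, the 5 endothelial markers to 1.18 to 1.75 FPKM in treated and 0.744 to 1.16 FPKM in control libraries. The 7 leukocyte markers, nearly all of it Cd68, summed to 242 to 259.9 FPKM in treated libraries and 77.05 to 444 FPKM in control libraries.

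Actb rose in the treated cells and Tmsb4x fell, while Actg1, Tmsb10, Pfn1, Cfl1 and Tagln2 did not pass the test. Acta2, Myl9 and Tagln were near or at 0 in all 6 libraries and were not tested. The 7 tested members were each at 115 FPKM or more in every library, so none of them passed the filter on low values through 1 group alone. The test was limma on log2(FPKM + 1) with Benjamini-Hochberg (BH) adjustment over all 11118 tested genes, with calls made at an adjusted p under 0.05. One of 7 tested members was called higher and 1 lower, against a background of 27.9% of all tested genes called higher and 28.3% called lower (56.1% in all). With libraries scaled to equal FPKM totals, 3 members were called higher and 0 lower, against 7172 and 736 of all genes. The groups did not overlap for 4 of the 7 members (1 higher and 3 lower), against 67.7% of all tested genes (33.6% higher and 34.1% lower). The median log2 fold change of the 7 tested members was -0.38, against -0.01 over all tested genes. In bulk RNA, fewer cells with a transcript and less of it per cell cannot be told apart.

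**Figure D1:**
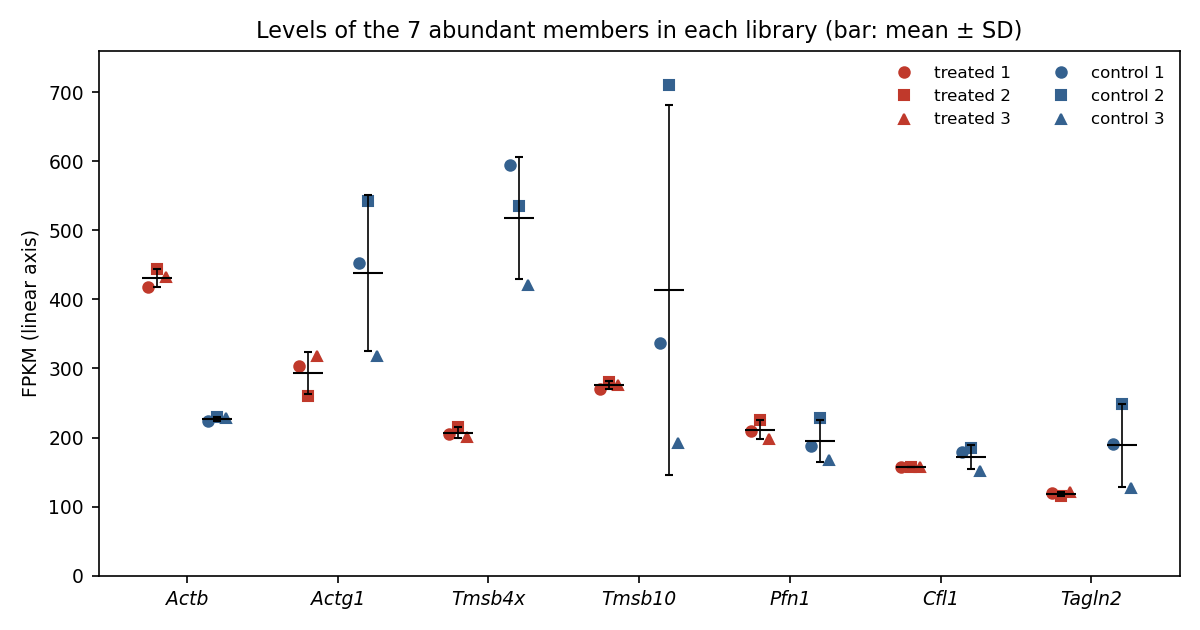
FPKM of the 7 abundant members in each library on a linear axis, treated libraries (red) left of control libraries (blue) for each gene; points are libraries, long bars are group means and error bars are SD (n = 3). Actb lies between 417 and 444 FPKM in treated libraries and between 224 and 229 FPKM in control libraries, while Tmsb4x lies between 200.2 and 215 FPKM in treated libraries and between 421 and 595 FPKM in control libraries.

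Actb, the gene of beta-actin (ENSMUSG00000029580, chr5:142903115-142906754, minus strand), measured 417, 444 and 432 FPKM in treated 1, 2 and 3, against 224, 229 and 228 FPKM in control 1, 2 and 3. All treated libraries lay above all control libraries, and the values within either group were within 1.06-fold of each other. The means were 431 ± 13.2 FPKM in treated cells and 227 ± 3.04 FPKM in control cells (SD, n = 3 each), a 1.90-fold difference. The log2 fold change was 0.92 ± 0.12 (SE; 95% interval 0.63 to 1.21), with a limma BH-adjusted p of 0.00143. Beta-actin mRNA therefore rose relative to the typical gene, by much more than the spread between libraries.

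Gamma-actin went the other way in value but not past the threshold. Actg1 (ENSMUSG00000062825, chr11:120345690-120348542, minus strand) measured 304, 259.8 and 317.7 FPKM in treated 1, 2 and 3, against 453, 542 and 317.9 FPKM in control 1, 2 and 3. Every treated library lay below every control library, but treated 3 and control 3 were nearly equal. Means were 294 ± 30.2 FPKM in treated cells and 438 ± 113 FPKM in control cells (SD, n = 3 each). The log2 fold change was -0.55 ± 0.23 (95% interval -1.10 to 0.01; limma BH-adjusted p = 0.0838), and it was above 0 under each of 3 other scalings. Without control 3 it was -0.76 with an adjusted p of 0.00649, so 1 control library decided whether Actg1 was called.

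The sum of the 2 cytoplasmic actins was 721, 704 and 750.0 FPKM in treated libraries and 677, 772 and 546 FPKM in control libraries. These sums overlapped between the groups on the deposited scale only. With libraries scaled to equal FPKM totals, the means of both actins were higher in treated cells. They were 1811 in treated and 478 in control cells for Actb. For Actg1 they were 1235 in treated and 935 in control cells, with overlapping libraries. The share of the sum that was Actb was 57.9%, 63.1% and 57.6% in treated libraries, against 33.0%, 29.7% and 41.8% in control libraries. Actb was thus the more abundant actin in all treated libraries and Actg1 in all control libraries. A ratio within a library does not depend on scaling between libraries. The ratio of Actg1 to Actb was 0.728, 0.585 and 0.735 in treated libraries, against 2.03, 2.36 and 1.39 in control libraries, with means of 0.683 ± 0.0843 in treated cells and 1.93 ± 0.492 in control cells (SD, n = 3 each). The groups did not overlap, and the log2 ratio was lower by 1.47 in treated cells than in control cells (difference -1.47; exact two-sided permutation test p = 0.1, the smallest that 3 against 3 libraries allow; BH-adjusted p = 0.2 over 4 ratios).

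**Figure D2:**
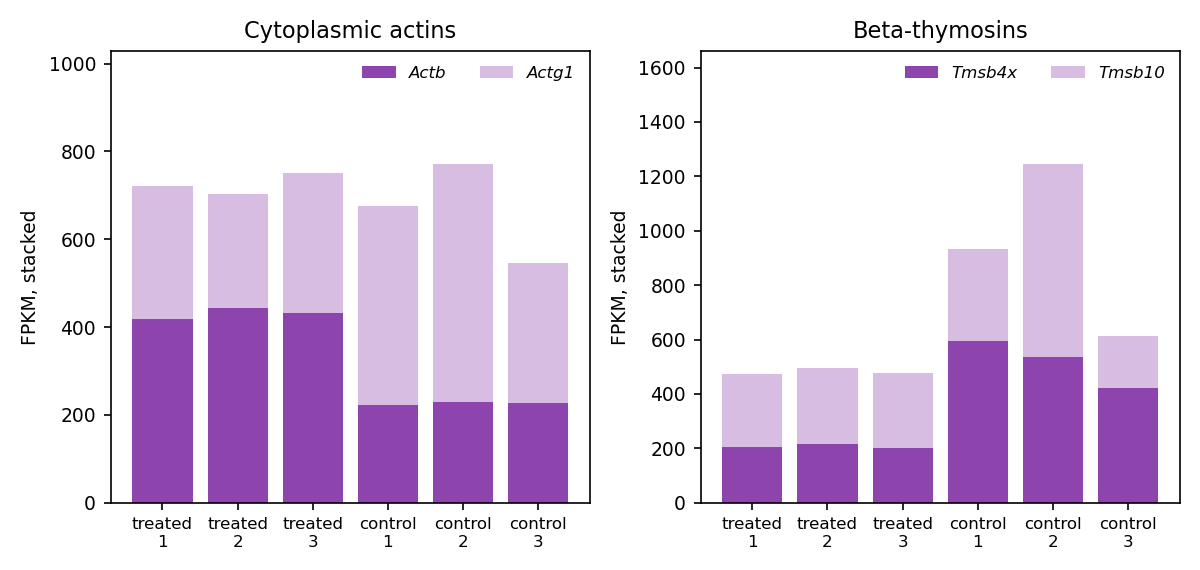
Stacked FPKM of the cytoplasmic actins Actb and Actg1 (left panel) and of the beta-thymosins Tmsb4x and Tmsb10 (right panel), 1 bar per library, treated libraries left of control libraries, each axis starting at 0. All heights are on the deposited scale. The actin bars have overlapping heights (704 to 750.0 FPKM in treated and 546 to 772 FPKM in control libraries) with a larger Actb part in treated libraries. The thymosin bars are lower in treated libraries (474 to 496 FPKM) than in control libraries (613 to 1246 FPKM).

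The muscle-type actin Acta2 (ENSMUSG00000035783, chr19:34241090-34255590, minus strand) was measured at a trace level. It had 0.152, 0.350 and 0.319 FPKM in treated libraries, against 0.0728, 0.0574 and 0.0972 FPKM in control libraries. Behind these values were 15, 34 and 31 reads in treated 1, 2 and 3, and 5, 4 and 5 reads in control 1, 2 and 3. The treated libraries were all higher, at levels far below those of Actb. Summed over libraries, 80 reads in treated cells and 14 in control cells gave a 3.70-fold difference after allowing for the library sizes behind the FPKM, with an exact 95% interval of 2.08 to 7.08 that covers counting error only. The exact two-sided permutation test over libraries gave p = 0.1, the smallest this design allows. With no filter on low values, the log2 fold change on the FPKM + 1 scale was 0.24 with a limma BH-adjusted p of 0.0546, so Acta2 was not called there either. Relative to Actb the groups overlapped, with ratios of 0.000364, 0.000789 and 0.000738 in treated libraries and 0.000325, 0.000250 and 0.000426 in control libraries (exact two-sided permutation p = 0.2; BH-adjusted p = 0.267 over 4 ratios).

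The monomer-holding thymosin Tmsb4x (ENSMUSG00000049775, chrX:167207093-167209315, minus strand) had the lowest p of the 7 tested genes, close to that of Actb, which had the lower p of the pair when no filter on low values was used. It measured 205, 215 and 200.2 FPKM in treated 1, 2 and 3, against 595, 536 and 421 FPKM in control 1, 2 and 3. All treated libraries lay far below all control libraries, and control 3 was the lowest control. Means were 207 ± 7.84 FPKM in treated cells and 517 ± 88.4 FPKM in control cells (SD, n = 3 each), so the control mean was 2.50-fold the treated mean. The log2 fold change was -1.30 ± 0.17 (95% interval -1.71 to -0.89; limma BH-adjusted p = 0.00141). With libraries scaled by total instead, this gene kept a value below 0 but was not called, at -0.56 by library size (limma BH-adjusted p = 0.0512) and -0.31 by total FPKM (0.238).

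Its relative Tmsb10 (ENSMUSG00000079523, chr6:72957347-72958748, minus strand) measured 269.7, 281 and 276 FPKM in treated libraries, against 338, 711 and 192 FPKM in control libraries. The treated values lay inside the range of the control values, which spanned 3.70-fold, the widest of the 7 tested members. Means were 276 ± 5.64 FPKM in treated cells and 413 ± 268 FPKM in control cells (SD, n = 3 each). The log2 fold change of -0.38 ± 0.45 (95% interval -1.48 to 0.72; limma BH-adjusted p = 0.502) changed sign without control 2, to 0.11, and under 3 other scalings. Tmsb4x made up 43.2%, 43.4% and 42.0% of the 2 thymosins in treated libraries, against 63.8%, 43.0% and 68.7% in control libraries. Control 2 therefore had the thymosin proportions of the treated libraries. The Tmsb10 to Tmsb4x ratio was 1.32, 1.30 and 1.38 in treated libraries and 0.567, 1.33 and 0.456 in control libraries, which overlapped (exact two-sided permutation p = 0.3; BH-adjusted p = 0.3 over 4 ratios). Both thymosins together stood at 474, 496 and 476 FPKM in treated libraries and 933, 1246 and 613 FPKM in control libraries, without overlap on the deposited scale.

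For profilin and cofilin the groups overlapped on the deposited scale. Pfn1, which loads monomers onto growing ends (ENSMUSG00000018293, chr11:70651850-70654644, minus strand), measured 210.2, 226 and 198 FPKM in treated libraries and 188, 228 and 168 FPKM in control libraries. Control 2 lay above all treated libraries and the other controls below them, so the groups overlapped. The log2 fold change was 0.13 ± 0.16 (95% interval -0.25 to 0.51; limma BH-adjusted p = 0.514). Cfl1, the filament-severing cofilin (ENSMUSG00000056201, chr19:5490455-5495201, plus strand), measured 157.6, 157.9 and 157.9 FPKM in treated libraries and 179, 185 and 152 FPKM in control libraries. The treated values were nearly equal and lay between control 3 and the other controls. Its log2 fold change was -0.12 ± 0.13 (95% interval -0.43 to 0.20; limma BH-adjusted p = 0.468). Under the 3 other scalings both were called higher, Pfn1 at 0.87 to 1.15 and Cfl1 at 0.63 to 0.93 on the log2 scale, so these intervals hold for the deposited scale only. Of the exon bases of Cfl1, 16.5% are shared with Snx32 on the opposite strand, but Snx32 was at most 0.551 FPKM in any library. The Pfn1 to Cfl1 ratio was 1.33, 1.43 and 1.25 in treated libraries and 1.05, 1.23 and 1.11 in control libraries, without overlap but with a small gap (log2 difference 0.25; exact two-sided permutation p = 0.1, the smallest possible; BH-adjusted p = 0.2 over 4 ratios).

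Among the filament-associated and contractile genes, Tagln2 was abundant and the muscle-type members were nearly absent. Tagln2 (ENSMUSG00000026547, chr1:172500047-172507380, plus strand) measured 119, 115 and 121 FPKM in treated libraries, against 191, 248 and 127 FPKM in control libraries. All treated libraries lay below all controls, with control 3 close to them. Means were 118 ± 3.15 FPKM in treated cells and 189 ± 60.2 FPKM in control cells (SD, n = 3 each). The log2 fold change was -0.62 ± 0.25 (95% interval -1.22 to -0.02), the limma BH-adjusted p of 0.0744 did not pass the threshold, and the value was above 0 under 3 other scalings. Without control 3 it was -0.87 with an adjusted p of 0.00285.

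Tagln (ENSMUSG00000032085, chr9:45929619-45936058, minus strand) was listed at 0 in all 6 libraries. A count of 0 allows up to 3 reads, which would be 0.0336 to 0.0341 FPKM in treated libraries and 0.0476 to 0.0644 FPKM in control libraries. The antisense gene Gm48529 covers 62.4% of its exon bases, was itself at most 0.0267 FPKM, and the strand setting of the counting is not given in the sources used here. Myl9 (ENSMUSG00000067818, chr2:156775420-156781658, plus strand) was at 0 in treated 1 and 2 and at 0.0778 FPKM (4 reads) in treated 3, against 0 in control 1 and 2 and 0.257 FPKM (7 reads) in control 3. Neither gene was thus measured at a level that allows a comparison. The list of smooth muscle and pericyte markers summed to 62.6 to 65.5 FPKM in treated libraries and 101 to 113 FPKM in control libraries, with 6 of its 9 genes under 1 FPKM everywhere and Myh11 and Cnn1 at 0 in all 3 controls. Smtn averaged 52.7 FPKM in treated and 88.0 FPKM in control cells, and Des 9.70 FPKM in treated and 16.6 FPKM in control cells. Together they carried that sum. Both were called lower on the deposited scale, with log2 fold changes of -0.73 and -0.70 (limma BH-adjusted p = 0.00200 and 0.0166). Notch3 averaged 1.22 FPKM in treated and 0.738 FPKM in control cells. It passed the filter on low values through the treated libraries, so no test of it is given. Ldb3, which was not tested, averaged 0.480 FPKM in treated and 0.161 FPKM in control cells. The fibroblast markers, 5 of 9 of which stayed under 1 FPKM everywhere, summed to 51.9 to 55.1 FPKM in treated libraries and 204 to 1168 FPKM in control libraries, where control 3 was highest. Col1a1 (30.2 FPKM in treated and 369.6 FPKM in control cells) and Col3a1 (21.4 FPKM in treated and 223 FPKM in control cells) made up nearly the whole sum, while Pdgfra averaged 1.21 FPKM in treated and 1.16 FPKM in control cells and Col1a2, Dcn and Lum were under 0.1 FPKM everywhere. The part of such cells in the levels of the 10 genes was not tested.

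The order of the abundant members by FPKM, a level per length, differed between the groups. Actb stood first of the 7 in each treated library and was 4th, 5th and 3rd in control 1, 2 and 3, where Tmsb4x or Tmsb10 stood first. Among all genes, Actb ranked 70th, 68th and 61st by FPKM in treated libraries, against 277th, 271st and 322nd in control libraries. Tmsb4x was 162nd, 155th and 167th in treated libraries and 115th, 134th and 177th in control libraries, which overlap. Actg1 also stood higher by rank, at 104th, 130th and 97th in treated libraries against 141st, 132nd and 240th in control libraries, although its mean FPKM was lower on the deposited scale. The 10 genes together took 0.499%, 0.498% and 0.507% of reads in treated libraries, against 0.362%, 0.444% and 0.243% in control libraries.

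Treated libraries varied little among themselves, and most of the spread came from the controls. Between the lowest and the highest library, Cfl1 differed 1.00-fold, Tmsb10 1.04-fold and Actg1 1.22-fold in treated cells, against 1.22-fold, 3.70-fold and 1.71-fold in control cells. Actb was the exception among the 7, with 1.06-fold in treated cells and 1.03-fold in control cells. Control 3 was the lowest control for 6 of the 7 members and control 2 the highest for 6 of the 7. Over all tested genes, the median SD on the log2 scale was 0.07 in treated and 0.27 in control libraries, so the wide control spread was not limited to actin genes.

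All 7 tested members are abundant genes, and abundant genes as a class were lower in treated cells on the deposited scale. Of the 1112 most abundant tested genes (47.0 FPKM or more on average over the 6 libraries), 2.88% were called higher and 68.6% lower, with a median log2 fold change of -0.996. A class chosen on the mean of both groups leans toward genes high in the controls, since FPKM totals were 235757 to 241953 in treated libraries and 450409 to 532583 in control libraries. Chosen on the treated mean alone, the 1112 most abundant genes had a median of -0.69, with 7.28% called higher and 55.4% lower, and chosen on the control mean alone -1.09. Within that class, the log2 fold change of Actb was the 28th highest of 1112, that of Pfn1 the 105th and that of Cfl1 the 160th. Tmsb10 was 243rd, Actg1 317th and Tagln2 355th, all in the upper part of the class. Tmsb4x was 727th, below the middle, with its -1.30 under the class median of -0.996. In the class chosen on the treated mean, Actb was 56th and Tmsb4x 845th. These places describe the data, with no test.

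**Figure D3:**
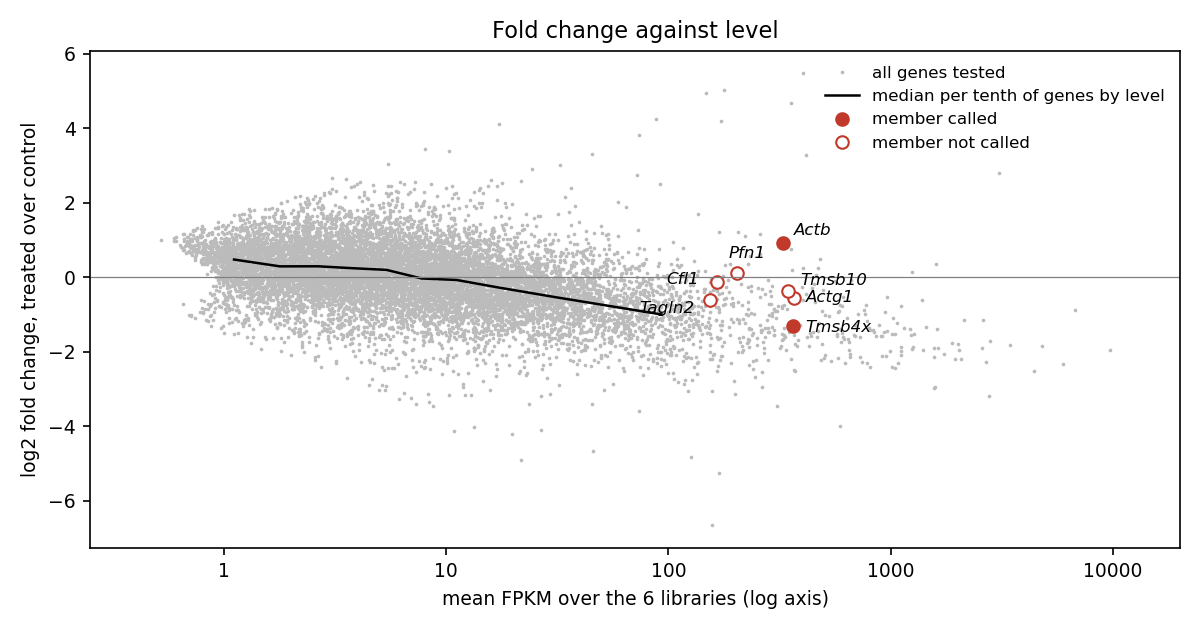
Log2 fold change (treated over control, deposited scale) of each tested gene against its mean FPKM over the 6 libraries on a logarithmic axis; the line joins the medians of 10 equal groups of genes by level, and red circles mark the 7 tested members, filled where called. The line goes down to -0.996 in the most abundant group of genes, Actb lies above it at 0.92 and Tmsb4x below it at -1.30.

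The direction for several members depended on how libraries were made comparable. The median log2 fold change of all tested genes was -0.01 on the deposited scale, 0.60 when libraries were scaled by size only, 0.81 when each was scaled to the same FPKM total (TPM, transcripts per 1e6) and 0.06 after quantile normalization. Actb was called higher on every scale, with log2 fold changes of 0.92, 1.67, 1.92 and 2.11 in that order, or 0.94, 1.07, 1.11 and 2.04 above the median gene. Tmsb4x was -1.30, -0.56, -0.31 and -0.21, or -1.29, -1.16, -1.11 and -0.28 relative to the median gene, and was called on the deposited scale only. Pfn1 and Cfl1 were called higher on the other 3 scales, with log2 fold changes of 0.87 to 1.15 for Pfn1 and 0.63 to 0.93 for Cfl1. Actg1, Tmsb10 and Tagln2 had values above 0 on those 3 scales (0.20 to 0.63, 0.37 to 0.86 and 0.12 to 0.38) and were not called. In TPM, Actb stood at 1765, 1834 and 1834 in treated libraries, against 496, 509 and 428 in control libraries, a 3.79-fold difference between means.

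**Figure D4:**
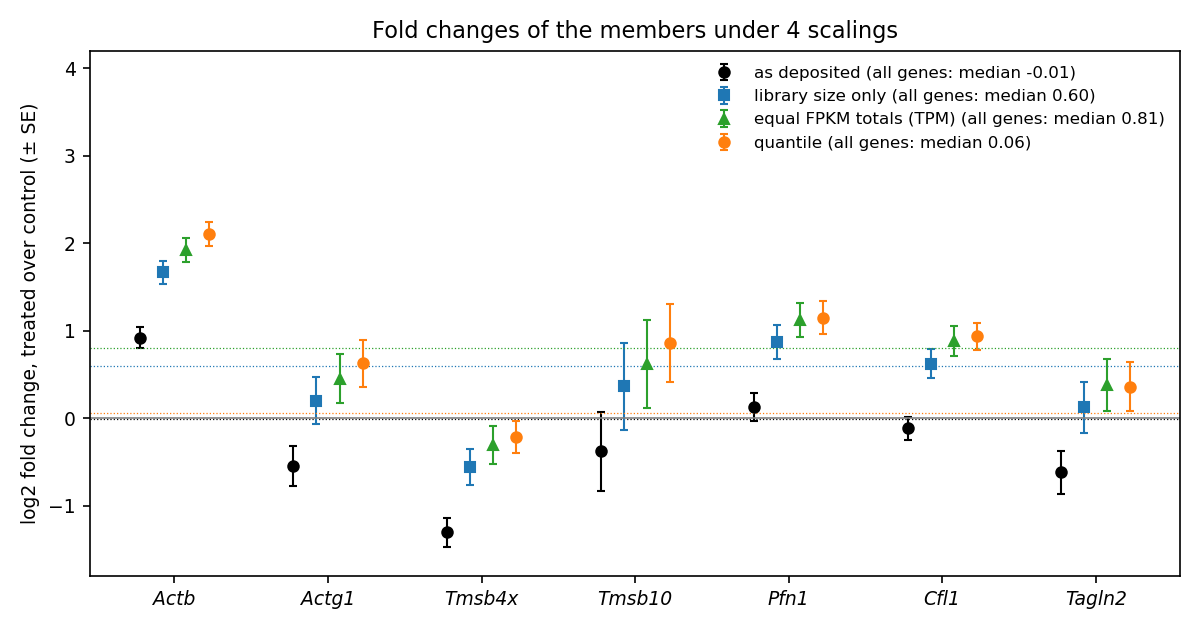
Log2 fold change (treated over control) with SE bars for the 7 tested members under the deposited scaling and 3 others, with dotted lines at the median of all tested genes under each. Actb is above 0 and Tmsb4x below 0 under all 4, while Actg1, Cfl1, Tmsb10 and Tagln2 lie below 0 on the deposited scale and above 0 on the others.

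The genes whose profile over the 6 libraries was nearest to that of Actb, by Euclidean distance of centred log2(FPKM + 1) among 6340 genes averaging 5 FPKM or more, were Nolc1, Rasa3 and Tmem199 (distances 0.0768, 0.122 and 0.130). Nolc1, the gene of a nucleolar phosphoprotein, averaged 25.1 ± 0.660 FPKM in treated cells and 12.9 ± 0.574 FPKM in control cells (SD, n = 3 each). Nearest to Tmsb4x were Snhg6, Cct4 and Acbd6 (distances 0.168, 0.184 and 0.210). Cct4, a subunit of the chaperonin that folds actin and tubulin, averaged 99.5 ± 6.77 FPKM in treated cells and 245 ± 40.5 FPKM in control cells (SD, n = 3 each).

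Other genes of the actin machinery were called in both directions. Of 119 other actin cytoskeleton symbols listed, 116 were found, and 104 genes were tested. Of these, 27 were called higher and 32 lower (26.0% and 30.8%, against 27.9% and 28.3% of all tested genes), 45 were not called, and the median log2 fold change was -0.14. The higher count includes Cttnbp2nl, Diaph2, Ssh2 and Mrtfb, which passed the filter on low values through the treated libraries. Such genes were not removed from the share of all tested genes either. Cttnbp2nl, Diaph2 and Ssh2 are also counted in the lists below. In TPM the calls were 75 higher and 4 lower (64.5% and 6.62% of all tested genes), by library size 59 and 5 (54.3% and 10.3% of all), and after quantile normalization 49 and 11 (28.8% and 23.3% of all). The shares of all tested genes called on the deposited scale, 27.9% higher and 28.3% lower, are the background for each list. Among the 18 tested genes listed under the Arp2/3 complex, which nucleates branched filaments, and its activators, 5 rose, 7 fell and 6 did not pass the test. No subunit gene of the complex itself was called higher on the deposited scale. The subunit genes were called lower or not called, and all genes that rose were others of this list. The Arp2/3 subunit Arpc1b fell to 56.7 ± 0.369 FPKM in treated cells, against 172 ± 17.4 FPKM in control cells (log2 fold change -1.58; limma BH-adjusted p = 0.000344). Cyfip1, a member of the WAVE regulatory complex, rose to 8.47 ± 0.294 FPKM in treated cells, against 4.35 ± 0.328 FPKM in control cells (0.82; adjusted p = 0.00112).

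Of the 12 tested formins and other filament elongators, 4 rose (33.3%), 4 fell (33.3%) and 4 did not pass, against 27.9% higher and 28.3% lower over all tested genes. The formin Fmnl2 measured 20.0 ± 0.217 FPKM in treated cells and 9.68 ± 0.871 FPKM in control cells (log2 fold change 0.98; limma BH-adjusted p = 0.000771). The diaphanous-related formin gene Diaph1 measured 16.3 ± 0.186 FPKM in treated cells and 28.6 ± 7.01 FPKM in control cells (-0.75; adjusted p = 0.0145), a call lost when any treated library was left out, and its value was 0.21 in TPM. Among 20 tested monomer-binding, severing and capping genes, 4 rose, 6 fell and 10 did not pass. Twinfilin 1 (Twf1), which binds monomers and filament ends, showed a wide difference, with 15.4 ± 0.448 FPKM in treated cells and 2.76 ± 1.17 FPKM in control cells (2.18; adjusted p = 0.000859). Capzb, a subunit of capping protein, measured 83.3 ± 2.16 FPKM in treated cells and 137 ± 13.3 FPKM in control cells (-0.71; adjusted p = 0.00404), with values above 0 under 3 other scalings.

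Tropomyosins and contractile genes had 11 tested genes, of which 1 rose (9.09%), 4 fell (36.4%) and 6 did not pass, against 27.9% higher and 28.3% lower over all tested genes. Tropomyosin Tpm2 fell to 32.0 ± 1.77 FPKM in treated cells, against 104 ± 26.5 FPKM in control cells (log2 fold change -1.63; limma BH-adjusted p = 0.00125). Caldesmon (Cald1), which binds actin and myosin, rose to 29.9 ± 1.02 FPKM in treated cells, against 18.7 ± 2.22 FPKM in control cells (0.66; adjusted p = 0.00528). That list holds 20 identifiers for 19 symbols, and 9 identifiers were below the filter. Among them were those of the muscle actins Acta1, Actc1 and Actg2, each under 0.1 FPKM in all 6 libraries. Filament crosslinkers and linkers to membrane or adhesions had 7 genes higher (33.3%), 2 lower (9.52%) and 12 not called of 21, against the same background. Of these, Lima1, which bundles filaments, measured 17.9 ± 0.588 FPKM in treated cells and 9.15 ± 0.706 FPKM in control cells (0.90; adjusted p = 0.000928). The bundling protein fascin (Fscn1) measured 89.6 ± 1.97 FPKM in treated cells and 134 ± 4.60 FPKM in control cells (-0.58; adjusted p = 0.00518), with values above 0 under 3 other scalings.

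**Figure D5:**
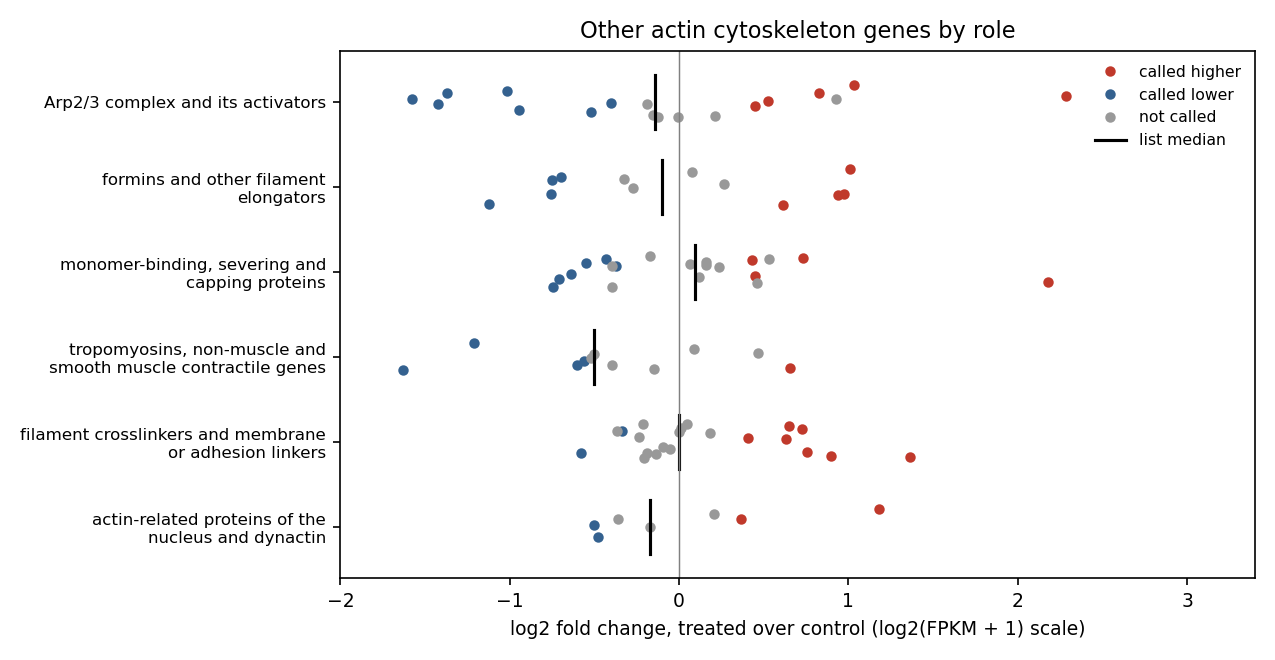
Log2 fold change (treated over control, log2(FPKM + 1) scale) of the tested genes in 6 lists of other actin genes, 1 point per gene, coloured by call, with the list median as a black bar. Each list holds genes on both sides of 0, with medians from -0.50 for the tropomyosins and contractile genes to 0.09 for the monomer-binding, severing and capping genes on the deposited scale; under scaling by library size, TPM or quantiles, more of the genes are called higher than lower.

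Srf and its cofactor genes Mrtfa and Mrtfb were named after their values were seen. Srf measured 10.8 ± 0.223 FPKM in treated cells and 24.3 ± 8.31 FPKM in control cells (log2 fold change -1.05; limma BH-adjusted p = 0.00869), and it was not called by library size or in TPM. Mrtfa measured 7.34 ± 0.180 FPKM in treated cells and 1.94 ± 0.346 FPKM in control cells (1.51; adjusted p = 0.000344). Srf and Mrtfa thus differed in opposite directions on the deposited scale. Mrtfb had 3.68 ± 0.151 FPKM in treated cells and 0.907 ± 0.661 FPKM in control cells, and it passed the filter on low values through the treated libraries, so no test of it is given. Actin-related proteins of the nucleus and dynactin had 2 genes higher, 2 lower and 3 not called of 7 (28.6% in each direction), near the 27.9% and 28.3% of all tested genes. Actr1a, the filament-forming subunit of dynactin, measured 22.4 ± 0.812 FPKM in treated cells and 31.7 ± 3.76 FPKM in control cells (-0.48; adjusted p = 0.0163), a call lost when any treated library was left out, with values above 0 by library size and in TPM.

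Promoter windows from 250 bases before to 50 after the start were found in the RefSeq promoter table (GRCm38.p6) for 8 of the 10 genes, all but Actb and Tagln. They were searched on both strands for the CArG box to which SRF binds, in its strict form. That form is CC, then 6 bases that are each A or T, then GG. It was found in Actg1, as CCATATATGG beginning 90 bases before the start (position -90), and in Myl9, as CCTAATAAGG at position -161. It was found in 535 of all 32851 promoter windows of the same length (1.63%). The other 6 genes held no match to this strict form in these windows. Looser forms, with C or G among the 6 middle bases, were not searched. The Acta2 window holds such runs, ccctatatgg and ccttgtttgg, so it cannot be said to lack CArG-like sequence. Both windows with a match are shown, 5′ to 3′ on the strand of the gene, with the CArG box in capitals; Actg1 lies at chr11:120348446-120348745 (minus strand) and Myl9 at chr2:156775214-156775513 (plus strand).

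Actg1 promoter: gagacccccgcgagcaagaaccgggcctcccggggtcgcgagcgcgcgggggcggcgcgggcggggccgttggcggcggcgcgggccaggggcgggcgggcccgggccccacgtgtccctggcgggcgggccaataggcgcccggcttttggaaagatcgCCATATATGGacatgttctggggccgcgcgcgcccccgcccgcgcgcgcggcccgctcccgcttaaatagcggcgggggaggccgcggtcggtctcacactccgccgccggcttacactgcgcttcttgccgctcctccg

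Myl9 promoter: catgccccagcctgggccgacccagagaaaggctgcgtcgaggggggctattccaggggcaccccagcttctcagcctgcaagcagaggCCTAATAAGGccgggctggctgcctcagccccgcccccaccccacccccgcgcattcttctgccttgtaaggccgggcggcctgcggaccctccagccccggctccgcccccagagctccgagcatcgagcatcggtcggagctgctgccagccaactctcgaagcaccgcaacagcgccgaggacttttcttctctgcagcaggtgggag

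TATAAA was found in none of the windows of the 8 genes, against 13.6% of all windows. Only this exact run was searched. Close runs occur, such as ctatataacc in the Acta2 window and gtatataaga in a Tmsb10 window, so the windows cannot be said to lack TATA-like sequence. The table holds 3 windows for Tmsb10 and 1 for each of the other 7 genes, so 10 in all. GGGCGG on either strand was found in 9 of these 10 windows, all but that of Acta2, against 35.7% of all windows, with 6 occurrences in Actg1 and 1 in Tmsb4x. A match is a run of letters and was not tested as a site.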

How the data were processed

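The authors deposited 1 FPKM value per gene and library, per the file headers. Not given in the sources used here were the aligner, read counter, genome build, annotation and strand setting. Groups came from the labels. The deposited FPKM had median-of-ratios factors of 1.01 in each library (13770 genes above 0 in all 6), so they had been scaled between libraries. Reads were worked back from low values with GENCODE M21 exon lengths; below 200 reads, 92.3% to 93.4% of values were whole to within 0.02. Reads were not told apart by molecular identifiers, so PCR copies count separately, and intervals and floors cover counting error only. A symbol was found for 52073 of 56748 identifiers. A gene entered the test if it reached 1 FPKM in 3 or more libraries. The test was limma 3.58.1 (R 4.3.3, trended prior variance, group as the only term) on log2(FPKM + 1), which understates changes of low genes, with Benjamini-Hochberg adjustment over all 11118. Ratios were tested with exact permutation in scipy 1.17.1; Tagln over Tagln2 was not computed because Tagln was 0. Copies were found with BLAST 2.17.0. The fit was tested on simulated data.

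The 10 genes and all gene lists were chosen with earlier results of these data known. Besides the members, the genes named are, per list, the called gene with the smallest p in each direction averaging at least 5 FPKM, and the 3 profiles nearest to Actb and to the member with the lowest p. Srf, Mrtfa and Mrtfb fall outside this rule and were chosen after their values were seen. Cttnbp2nl, Diaph2 and Ssh2 also fall outside it and are named only for how they passed the filter on low values. The choice of the most abundant genes by the mean of 1 group alone was also added after the data were seen. One further list is counted in the total over the other actin genes and is not reported here on its own. No called higher gene of that level was in the list of actin-related proteins. Alternatives changed the pseudocount (0.1), the filter (none, or 5 FPKM), the scaling, the variance weights and the libraries included. The numbers of the replicates were not found to pair libraries.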

Additional observations from a re-analysis of the deposited data

How the results depend on the processing

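Against 1 member called higher and 1 lower, 3 and 0 were called in TPM, by library size and after quantile normalization; 2 were called lower with variance weights per group. Against 3099 genes called higher and 3141 lower, 7172 and 736 were called in TPM, 6032 and 1149 by library size, 3199 and 2590 after quantile normalization, and 1385 were called higher with a minimum of 5 FPKM. Against 27 higher and 32 lower among the other actin genes, 75 and 4 were called in TPM, 59 and 5 by library size, and 49 and 11 after quantile normalization. Leaving out 1 library at a time gave 1 member higher and 1 to 3 lower (3 without control 3, with Actg1 and Tagln2 called too), 2279 to 3634 of all genes higher and 2140 to 3778 lower, and 19 to 31 other actin genes higher and 14 to 39 lower. Actb was called higher in each of 14 alternatives. Tmsb4x was not called in TPM, by library size or after quantile normalization.

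Log2 fold changes that changed sign in TPM were those of Actg1 (0.45), Cfl1 (0.88), Tmsb10 (0.62), Tagln2 (0.38), Diaph1 (0.21), Capzb (0.28), Fscn1 (0.42) and Actr1a (0.49). By library size they were Actg1 (0.20), Cfl1 (0.63), Tmsb10 (0.37), Tagln2 (0.12), Capzb (0.031), Fscn1 (0.16) and Actr1a (0.24). After quantile normalization they were Actg1 (0.63), Cfl1 (0.93), Tmsb10 (0.86), Tagln2 (0.36), Capzb (0.25) and Fscn1 (0.38). With 1 library left out, Tmsb10 lay between -0.83 (without control 3) and 0.11 (without control 2). The cause of these changes between scalings was not tested. The 4 ratios kept their direction in each of 8 alternatives, at -1.69 to -1.31 for Actg1/Actb, 0.67 to 1.23 for Acta2/Actb, 0.62 to 1.39 for Tmsb10/Tmsb4x and 0.20 to 0.31 for Pfn1/Cfl1 with 1 library left out.

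Same-numbered treated and control libraries had correlations of deviations of -0.05, -0.11 and -0.14, and 0 of 6 libraries correlated best with their own number. No pairing by number was thus found, but with so few libraries this check cannot show that libraries were unpaired. With a replicate block, 18 other actin genes were called lower and 2618 and 2669 of all genes higher and lower. The block left 1 member higher and 1 lower, and the adjusted p of Actr1a was 0.0637. For the ratios a block cannot move the mean difference when each number has 1 library per group (-1.47, 0.87, 0.93 and 0.25). The exact permutation p with the block was 0.25 to 0.5, where 0.25 is the smallest p that this blocked test can give.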
